A study of Mus musculus with 16 samples.

Results

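Histones are the small basic proteins around which DNA is wound in the nucleosome. The genes described here are all array probes named as members of the replication-dependent histone clusters (names starting Hist1h, Hist2h, Hist3h or Hist4h) or as 1 of 7 replacement variants (H2afx, H2afz, H2afy, H2afv, H3f3a, H3f3b and H1f0). They came to 43 genes on 61 probes, of 30027 gene names on 41174 probes of a mouse whole-genome expression array. Of the 43 genes, 36 were cluster genes and 7 were variants, and 34 (27 cluster genes and all 7 variants) were bright enough to be tested among 15399 genes.

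The arrays measured bulk B16-BL6 tumours, grafts of an invasive subline of the mouse melanoma B16, grown in male C57BL/6J mice aged 8 weeks. The 4 groups of 4 tumours were untreated controls, tumours given 5-aminolevulinic acid (ALA) at 50 mg/kg, tumours given X-rays, and tumours given ALA before X-rays. ALA was given locally and the radiation in fractions; the radiation dose and the time of sampling are not given in the sources used here. ALA is the precursor from which cells make protoporphyrin and haem, and the design asks whether it changes the tumour's answer to radiation. A bulk tumour holds host cells as well as melanoma cells, and in such tissue fewer cells of a type and less RNA per cell cannot be told apart. The labels do not number the mice, so the p-values measure the spread between these samples.

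The replication-dependent genes lie in clusters as many near-identical copies, lack introns, and are transcribed mainly while DNA is copied, supplying H2A, H2B, H3 and H4 for new nucleosomes and H1 for the linker between them. Their mRNAs normally end in a conserved stem-loop instead of a poly(A) tail. The replacement variants lie outside the clusters, are mostly made throughout the cell cycle from tailed mRNAs, and can take the place of the replicative histones outside DNA replication. Most have introns; H1f0 and H2afx do not, and H2afx also makes a stem-loop mRNA in S phase. The labelling kit named by the submitters amplifies RNA from an oligo(dT) primer, so it favours tailed transcripts; how much of each cluster gene's signal came from tailed RNA was not measured.

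The probe sequences bear on every cluster gene value below and are shown first. Near-identical copies share probe sequence, and a probe may collect RNA from its paralogs. The H2B probes used for Hist1h2bk (mm9 chr13:22127928-22127987, plus strand), Hist1h2bm (chr13:21814139-21814198, plus strand) and Hist3h2bb-ps (chr11:58767697-58767756, minus strand) read the same stretch, and capitals mark the bases at which any of the 3 differ.
Hist1h2bk: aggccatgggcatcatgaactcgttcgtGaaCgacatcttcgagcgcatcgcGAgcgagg
Hist1h2bm: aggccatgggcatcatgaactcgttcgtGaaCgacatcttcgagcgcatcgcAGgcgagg
Hist3h2bb-ps: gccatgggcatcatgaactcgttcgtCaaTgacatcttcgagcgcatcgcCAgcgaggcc
The Hist1h2bk and Hist1h2bm probes had 58 of 60 bases in common, and the Hist3h2bb-ps probe matched the former at 55 of 58 overlapping bases. These 3 values are therefore close to repeated readings of 1 stretch of H2B sequence and are not independent.

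The H4 probes overlap in the same way. Those shown stand for Hist1h4d (chr13:23673665-23673724, plus strand), Hist1h4f (chr13:23643249-23643308, minus strand) and Hist2h4 (chr3:96066953-96067012, minus strand), with differing bases in capitals.
Hist1h4d: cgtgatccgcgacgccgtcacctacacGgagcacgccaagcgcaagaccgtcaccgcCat
Hist1h4f: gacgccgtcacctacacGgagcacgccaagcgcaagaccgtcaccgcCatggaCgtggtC
Hist2h4: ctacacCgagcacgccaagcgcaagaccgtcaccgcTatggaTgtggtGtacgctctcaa
The first pair matched at all 50 overlapping bases, and Hist2h4 matched Hist1h4f at 45 of 49. In the H2A family the probes of Hist1h2ai (chr13:21879028-21879087, minus strand) and Hist1h2ak (chr13:21845637-21845696, minus strand) both begin at the start codon and matched at 55 of 60 bases.
Hist1h2ai: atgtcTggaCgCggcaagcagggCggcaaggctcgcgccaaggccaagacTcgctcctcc
Hist1h2ak: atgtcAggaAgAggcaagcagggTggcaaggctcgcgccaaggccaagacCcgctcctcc

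A few probes reach the 3′ end of the message, where the stem-loop lies. The word GGCTCTTTT, its rising arm and loop, was present in 18 of 41174 probes, of which 3 were histone probes. The word TTTTCAGAG, its loop and falling arm, was present in 36, of which 2 were histone probes. In the Hist1h1a probe other bases follow the first word in place of the falling arm. The pieces below come from Hist1h3a (chr13:23853756-23853815, minus strand), Hist1h2ab (chr13:23843392-23843451, plus strand) and Hist1h2ae (chr13:23662489-23662548, minus strand), with the stem-loop in capitals.
Hist1h3a: accaaaGGCTCTTTTCAGAGCCaca
Hist1h2ab: aacaaaGGCTCTTTTCA
Hist1h2ae: CTTTTCAGAGCCattc
The Hist1h3a probe holds the whole stem-loop and was well above background on 3 of 16 arrays, the Hist1h2ab probe stops within it and was above background on all 16, and the Hist1h2ae probe starts within it and was above background on 15.

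The 9 genes not bright enough to be tested were all cluster genes. They were Hist1h1a, Hist1h1t (the testis linker histone), Hist1h2ac, Hist1h2al, Hist1h2be, Hist1h2bp, Hist1h2bq, Hist1h3a and Hist3h2ba, each well above background on 0 to 3 arrays where 4 were required. Position along the transcript and detection varied together. Of 36 cluster probes that start within the first 1300 bases of their annotated transcript 30 passed, and of 9 that start further along 3 passed (Hist1h1c, Hist1h1d and Hist2h2be). That boundary was chosen after the positions were seen. The Hist1h2al probe lies at chr13:51295494-51295553, far from the other Hist1 probes on that chromosome, which span positions 21814139 to 24026718, and its accession is now listed as H2af-ps2.

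**Figure D1:**
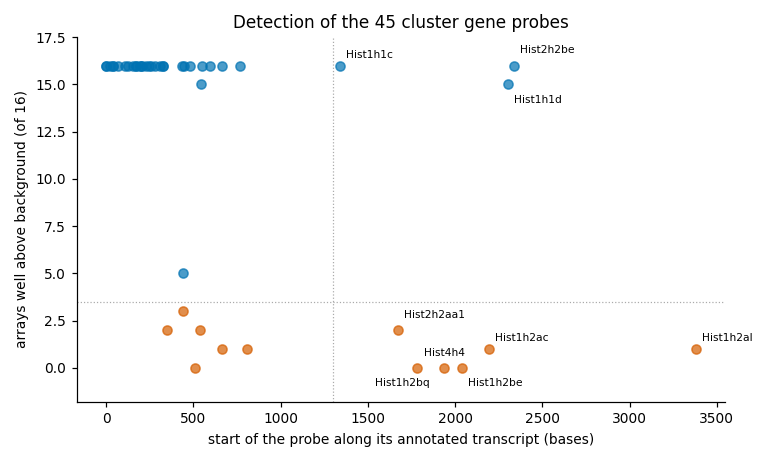
Each point is 1 of the 45 cluster gene probes, with the start of the probe along its annotated transcript in bases on the x axis and the number of 16 arrays on which it was well above background on the y axis. Blue probes passed the requirement of 4 arrays (dotted horizontal line) and orange probes did not; right of the dotted vertical line at 1300 bases, 3 of 9 probes passed.

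Signal throughout is the log2 of the background-corrected signal minus that array's 75th percentile, compared within a probe only. Group differences were tested with limma over all 15399 genes, with Benjamini-Hochberg adjustment, and a gene is said to have risen or fallen where its adjusted p was below 0.05. Whole-array agreement was high, with correlations between tumours of 1 group of 0.927 to 0.984. All 10 melanocyte markers were well above background on all 16 arrays, as the tissue label calls for. On each slide the array position followed the treatment, so position and group cannot be told apart. Replicate 1 of ALA plus X-ray stood nearer to the other groups than its 3 partners did in the H2B, H3, H4 and variant shifts, and the main counts it moves are given with and without it.

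The histone families moved apart in the tumours given ALA plus X-ray. Against control, 17 of the 34 histone genes changed, against a background of 24.9% of all genes tested. Of the 27 cluster genes, 6 rose (background 9.77%) and 8 fell (background 15.1%), and of the 7 variants 3 fell and none rose. The median change of the cluster genes, -0.15 on the log2 scale, lay near the median of -0.08 over all genes tested, yet its members spanned -2.01 to 1.44. Of 6 tested H2B genes 5 rose, of 5 H4 genes 4 fell, both H3 genes fell, 1 H2A gene rose and 1 fell, and 1 of 4 H1 genes fell. The number of histone genes called moved with single tumours. It was 10, 9 and 11 without control replicates 1, 2 and 4 respectively, beside 2239, 1954 and 2538 of all genes (3828 in the main fit). Without ALA plus X-ray replicates 2 and 3 it was 8 and 9, beside 2194 and 2191. Without replicate 1 of ALA plus X-ray it was 23, beside 5953. Without that last tumour 14% of all genes rose and 24.7% fell; 5 of 6 H2B genes still passed with a median of 1.31, 5 of 5 H4 genes with a median of -1.39, both H3 genes with a median of -0.77 and 7 of 7 variants with a median of -0.58. The 9 calls that ended without ALA plus X-ray replicate 2 were those of Hist1h2ab, Hist1h2ba, Hist1h2bm, Hist1h4a, Hist1h4d, Hist2h3c1, Hist2h4, H2afx and H3f3a. With arrays scaled to their median the number of histone genes called was 11, as 5 higher and 6 lower, beside 2135 of all genes. In a fit of the control and ALA plus X-ray arrays alone it was 9, beside 1603.

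Markers of the cell types that a tumour can hold were summed beside the histone genes. The summed level of 10 macrophage and monocyte markers (linear signal over the array's 75th percentile) ranged from 147 to 278 after ALA plus X-ray, from 61.5 to 111 in controls, from 12.3 to 38.8 after ALA and from 18.9 to 104 after X-ray. Above all controls, by a narrow margin, lay also the 3 of 9 T and NK cell markers that passed the brightness requirement (without Cd3g, Cd2, Cd247, Trac, Klrb1c and Ncr1), at 0.340 to 2.74 after ALA plus X-ray and 0.0920 to 0.337 in controls. Their sums were 0.0681 to 0.297 after ALA and 0.0985 to 2.02 after X-ray. These are dim signals, and 0 of the 3 markers were well above background on all 16 arrays. Below all controls lay the 4 of 7 erythroid markers that passed, at 23.4 to 54.7 after ALA plus X-ray, 60.1 to 173 in controls, 280 to 698 after ALA and 26.1 to 819 after X-ray. The other lists overlapped between ALA plus X-ray and control. The 10 melanocyte markers summed to 929 to 1306 and 999 to 1181 respectively, 5 of 6 endothelial markers to 6.59 to 15.2 and 8.58 to 10.3, and 8 fibroblast and matrix markers to 59.7 to 421 and 27.5 to 106. The sums of 10 skeletal muscle markers were 1.44 to 646 and 1.37 to 233, and those of 3 of 5 keratinocyte markers 0.222 to 5.21 and 0.234 to 0.638. The part of these markers in the histone results was not tested.

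**Figure D2:**
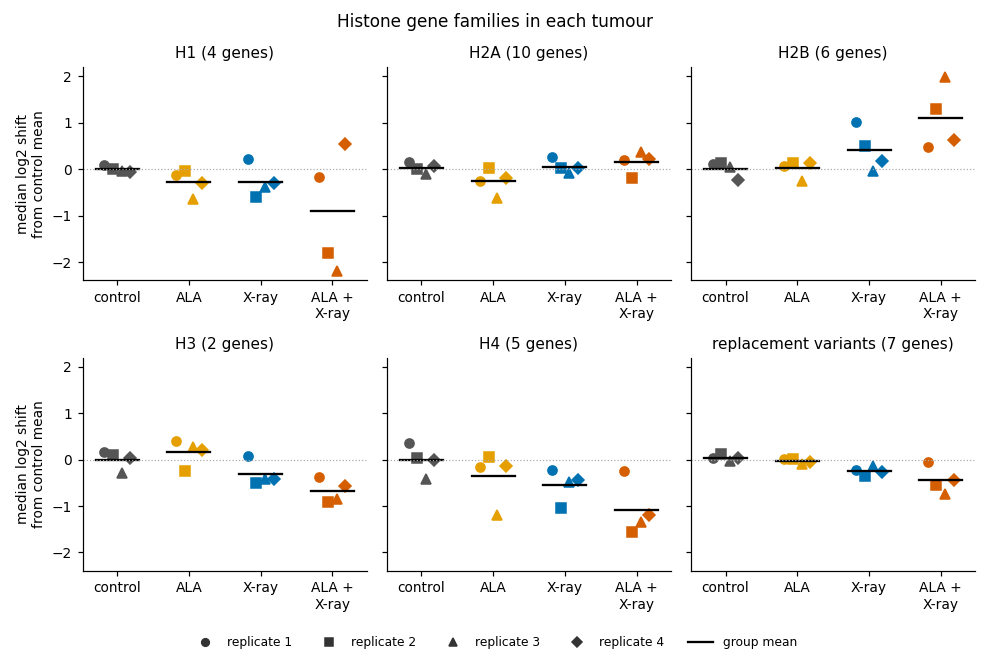
Each point is 1 tumour, with the group on the x axis and, on the y axis, the median over a family's tested genes of the log2 signal minus the control mean of each gene. Bars are group means and marker shapes are replicate numbers. After ALA plus X-ray the H2B points lie between 0.47 and 1.98 and the H4 points between -1.55 and -0.25.

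H2B, which pairs with H2A to form the outer dimers of the nucleosome, had 10 genes on the array, of which 6 were tested and 5 rose after ALA plus X-ray against control, with a family median of 1.10. The change was largest in Hist1h2bc (now H2bc4; probe at chr13:23784219-23784278). Its log2 signal was 1.84, 2.59, 2.39 and 1.96 in the 4 controls, 2.17, 2.65, 2.24 and 2.25 after ALA, 3.10, 3.11, 2.56 and 2.84 after X-ray, and 2.89, 3.81, 4.60 and 3.23 after ALA plus X-ray. All 4 tumours of the combined treatment lay above all controls, the mildest being replicate 1. The fitted change was 1.44 ± 0.30 (SE, n = 4 per group), a 2.71-fold rise (limma adjusted p = 0.00696).

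Hist1h2bk, read by the shared H2B stretch printed above, had log2 signals of 2.58, 2.51, 2.48 and 2.20 in controls and 2.94, 3.78, 4.47 and 3.07 after ALA plus X-ray. The groups did not overlap, and the rise was 2.18-fold (1.13 ± 0.29, limma adjusted p = 0.0153). Hist1h2bm rose 2.13-fold and Hist3h2bb-ps 2.17-fold, and their values ran alongside those of Hist1h2bk tumour by tumour. A second Hist1h2bk probe, starting 106 bases into the transcript instead of 172, gave 1.05 ± 0.28. The probe of Hist1h2ba, the H2B of the male germ line, overlaps part of the same stretch with some differing bases. Its values also ran alongside those of Hist1h2bk, at 1.91, 2.53, 3.15 and 1.97 after ALA plus X-ray, so it may not be an independent reading. Hist1h2ba rose 1.89-fold (limma adjusted p = 0.034). That call ended under median scaling, without the filter on dim probes and in the fit of the compared arrays alone, and those of Hist1h2bk and Hist1h2bm ended in the last of these. Hist2h2be was the tested H2B gene that did not pass, at -0.34 ± 0.22 (limma adjusted p = 0.267), and its probe starts 2337 bases into the transcript.

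H4, which with H3 forms the core on which nucleosome assembly starts, went the other way. Of 5 genes, all tested, 4 fell after ALA plus X-ray against control, and the family median was -1.09. The number that fell was 1 without control replicate 1 or 2 or ALA plus X-ray replicate 2 or 3, and 2 without control replicate 4 or ALA plus X-ray replicate 4, with family medians of -1.09 to -0.93. Over all genes 1277, 1141, 1259 and 1321 fell in the fits with 1, and 1441 and 1494 in those with 2, beside 2324 in the main fit. Hist1h4f (now H4c6) had log2 signals of 6.37, 6.06, 5.36 and 5.89 in controls, 5.76, 5.91, 4.40 and 5.59 after ALA, 5.52, 4.71, 5.20 and 5.26 after X-ray, and 5.27, 4.25, 4.44 and 4.62 after ALA plus X-ray. The 4 tumours of the combined treatment lay below the lowest control, replicate 1 by a narrow margin. The gene fell by 1.28 on the log2 scale, with SE 0.33, or 2.43-fold (limma adjusted p = 0.0147).

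Hist1h4a fell 2.25-fold (limma adjusted p = 0.0192), Hist1h4d 2.13-fold (0.0325) and Hist2h4 1.91-fold (0.036). In each of these 3 genes replicate 1 of ALA plus X-ray lay within the control range and the other tumours of its group lay below every control. Hist4h4, with a change of -0.77 ± 0.28, missed the threshold (limma adjusted p = 0.0543). A second Hist1h4d probe, at another part of the coding stretch, gave -1.39 ± 0.39 beside -1.09 ± 0.34 for the probe used. The Hist1h4d and Hist2h4 calls ended under median scaling, without the filter on dim probes, and in the fit of the compared arrays alone; the Hist1h4d call also ended with normexp background.

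H3 carries many of the best known histone tail modifications. Both tested H3 genes of 3 on the array fell. Hist1h3d (now H3c4) had log2 signals of 5.77, 5.74, 5.29 and 5.73 in controls, 6.03, 5.38, 5.87 and 5.82 after ALA, 5.70, 5.11, 5.16 and 5.30 after X-ray, and 5.23, 4.68, 4.77 and 5.01 after ALA plus X-ray. The combined treatment lay below every control and every ALA tumour, with a 1.63-fold fall against control (limma adjusted p = 0.0153). Hist2h3c1 fell 1.56-fold (limma adjusted p = 0.0201), a call that ended under median scaling and with normexp background. Its probe starts with nearly the same bases in which the Hist1h3d probe ends. The values of Hist2h3c1 ran alongside those of Hist1h3d, at 5.84, 5.35, 5.39 and 5.68 after ALA plus X-ray, so the pair may not be independent readings.

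The slides gave the same signs one by one. Within each of the 4 slides, which held 1 tumour of every group, the median difference of ALA plus X-ray from control was between 0.35 and 1.96 for H2B, between -1.60 and -0.58 for H4 and between -1.004 and -0.54 for H3. The gap between the H2B and H4 shifts of a tumour, a measure chosen after the family values were seen and therefore given with no test, was -0.25 to 0.46 in controls, 0.08 to 0.95 after ALA, 0.44 to 1.55 after X-ray and 0.72 to 3.32 after ALA plus X-ray. The ALA plus X-ray tumours other than replicate 1 had gaps of at least 1.83, above all other tumours, and replicate 1 lay within the X-ray range.

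**Figure D3:**
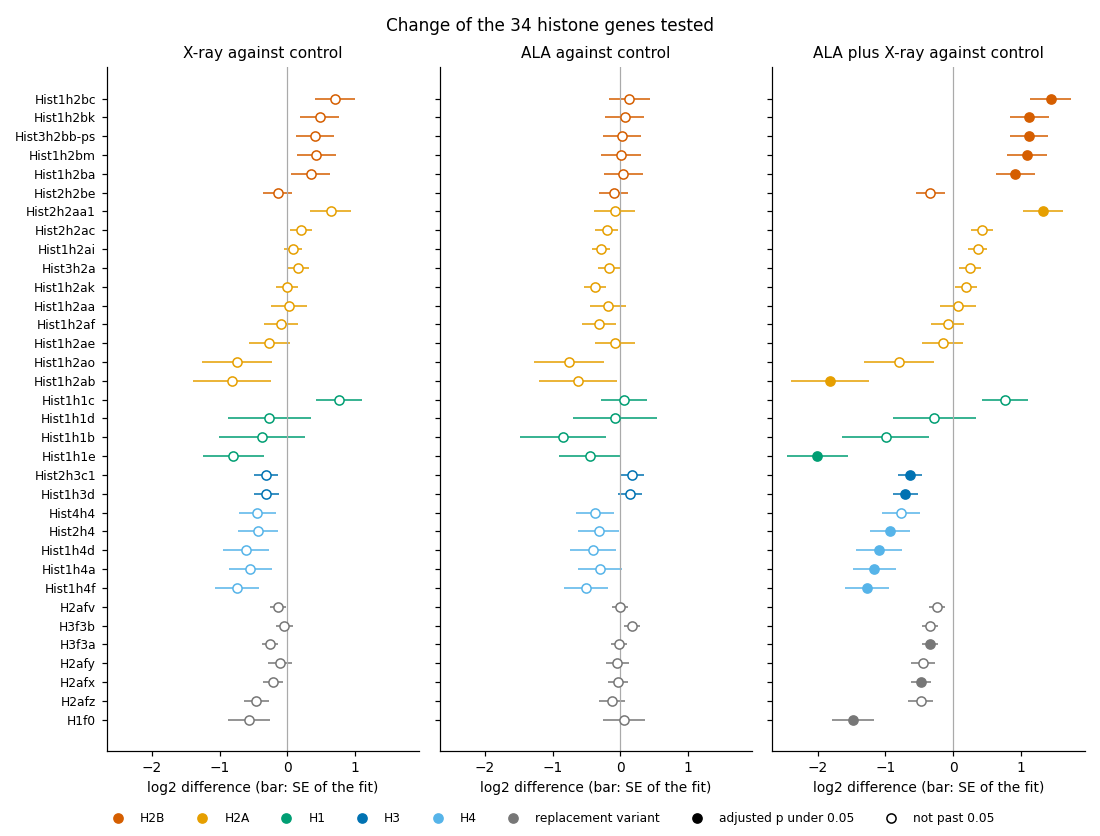
The 34 tested genes are listed on the y axis by family, with the log2 difference from control on the x axis for X-ray, ALA and ALA plus X-ray; bars are the standard error of the fit and filled points have an adjusted p below 0.05. Filled points occur only in the panel of ALA plus X-ray, with 5 H2B genes and 1 H2A gene to the right of 0 and 11 genes of H1, H2A, H3, H4 and the variants to its left.

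H2A genes did not move as 1 family. Of 12 genes 10 were tested, 1 rose and 1 fell after ALA plus X-ray against control, and the median was 0.13. Hist2h2aa1 (now H2ac18), read by a probe over the start of its coding sequence at chr3:96049502-96049561, had log2 signals of -1.53, -1.31, -1.33 and -1.31 in controls, -1.63, -1.41, -1.60 and -1.17 after ALA, -0.24, -0.65, -1.07 and -0.98 after X-ray, and -0.81, 0.25, 0.91 and -0.53 after ALA plus X-ray. Every irradiated tumour, with or without ALA, lay above every tumour that was not irradiated. The rise against control was 2.51-fold for ALA plus X-ray (limma adjusted p = 0.00942) and 1.56-fold for X-ray, which did not pass (limma adjusted p = 0.231). The other probes labelled Hist2h2aa1 start 805 and 1673 bases into their annotated transcripts. They were well above background on 1 and 2 arrays respectively, where 4 were required, and took no part. The rise of this gene therefore rests on the probe over the start of its coding sequence.

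Hist1h2ab (now H2ac4), whose probe ends in the stem-loop, fell. Its log2 signals were 2.15, 1.66, 1.07 and 1.66 in controls and 1.34, -1.11, -1.55 and 0.58 after ALA plus X-ray. Replicate 1 of the combined treatment lay within the control range, and the fitted fall was 3.53-fold (limma adjusted p = 0.0333); the call ended without the filter on dim probes and in the fit of the compared arrays alone. The other 8 tested H2A genes had changes of -0.80 to 0.42 and did not pass. Among them Hist1h2aa and Hist1h2af, at 0.07 ± 0.26 and -0.08 ± 0.25, lay near 0. The probes used for both start 328 bases into the transcript and open with the same bases. Their values ran alongside each other tumour by tumour, so the pair are close to repeated readings and are not independent. Probes of 1 gene could differ: a Hist1h2af probe near the start of the coding sequence gave -0.74 ± 0.38, and a second Hist3h2a probe gave 0.76 ± 0.23 beside 0.25 ± 0.16 for the probe used.

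Linker histones of the cluster had 6 genes, of which 4 were tested and 1 changed. Hist1h1e (now H1f4; probe at chr13:23713707-23713766), one of the main somatic H1 genes, showed the largest fall among the tested histone genes. Its log2 signals were 3.68, 3.39, 2.59 and 3.34 in controls, 3.14, 3.26, 1.91 and 2.90 after ALA, 2.57, 1.96, 2.32 and 2.95 after X-ray, and 2.52, 0.77, 0.05 and 1.62 after ALA plus X-ray. The combined treatment lay below all controls, with replicate 1 close to the lowest of them. The fall was 4.02-fold (-2.01 ± 0.45, limma adjusted p = 0.0094). Hist1h1c, another somatic H1, had a change of 0.76 ± 0.34 that did not pass (limma adjusted p = 0.113). Hist1h1d was at -0.28 ± 0.62, with 1 tumour of ALA plus X-ray at 0.63 and its 3 partners between -3.50 and -1.75, and a second probe gave 0.18 ± 0.50. Hist1h1b was well above background on 5 of 16 arrays and on no ALA array, and its values are bounds there.

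The replacement variants had values below 0 in 7 of 7 genes after ALA plus X-ray against control, with a median of -0.45 and a range of -1.48 to -0.24; over all genes tested 8694 of 15399 were below 0. All 7 fell without replicate 1 of ALA plus X-ray, and 1 fell without ALA plus X-ray replicate 2 or 3 or control replicate 2, 3 or 4. Over all genes 3803 fell in the first of these fits and 1141 to 2146 in the others. H1f0 encodes the linker histone H1.0, known from non-dividing and differentiated cells. Its log2 signals were 5.36, 5.06, 4.56 and 5.16 in controls, 5.39, 4.87, 4.99 and 5.10 after ALA, 4.61, 3.95, 4.59 and 4.72 after X-ray, and 4.48, 3.58, 2.60 and 3.56 after ALA plus X-ray. The combined treatment lay below every control, and H1f0 fell 2.79-fold (-1.48 ± 0.31, limma adjusted p = 0.00715). The other H1f0 probes gave -1.40 ± 0.40 and -1.47 ± 0.39.

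H2afx encodes H2A.X, the variant that is phosphorylated around DNA breaks; the array measures its mRNA and not that modification. Its log2 signals were 4.34, 4.51, 4.44 and 4.50 in controls, 4.47, 4.42, 4.36 and 4.41 after ALA, 4.23, 4.07, 4.46 and 4.16 after X-ray, and 4.40, 3.80, 3.61 and 4.08 after ALA plus X-ray. Replicate 1 of ALA plus X-ray lay within the control range and the other 3 lay below it. The fall was 1.39-fold (limma adjusted p = 0.031). H3f3a, 1 of the genes for the replacement histone H3.3, fell 1.27-fold (limma adjusted p = 0.0473). The other H3f3a probes gave -0.45 ± 0.12 and -0.54 ± 0.13, beside -0.34 ± 0.12 for the probe used. The H2afx and H3f3a calls both ended under median scaling, without the filter on dim probes, and in the fit of the compared arrays alone, and that of H2afx also ended with normexp background.

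The other 4 variants did not pass against control. H3f3b, the second H3.3 gene, was at -0.34 ± 0.12 (limma adjusted p = 0.0512), with tumours of 6.64 to 7.04 after ALA plus X-ray below controls of 7.13 to 7.31. The other H3f3b probes gave -0.445 ± 0.125 and -0.36 ± 0.15. H2afz, an H2A.Z gene linked to promoters, was at -0.48 ± 0.19 (limma adjusted p = 0.0705) and H2afv, the other H2A.Z gene, at -0.24 ± 0.12 (0.137). H2afy encodes macroH2A1, which carries a large extra domain and is known from silent chromatin, and was at -0.45 ± 0.18 (limma adjusted p = 0.0753). Its probes disagreed: 1 of the others gave -0.54 ± 0.19, and the last, designed on another transcript of the gene, gave 0.29 ± 0.26. A second probe labelled H2afz maps to chr6:116122005-116122064 and was well above background on 0 arrays, so it took no part.

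**Figure D4:**
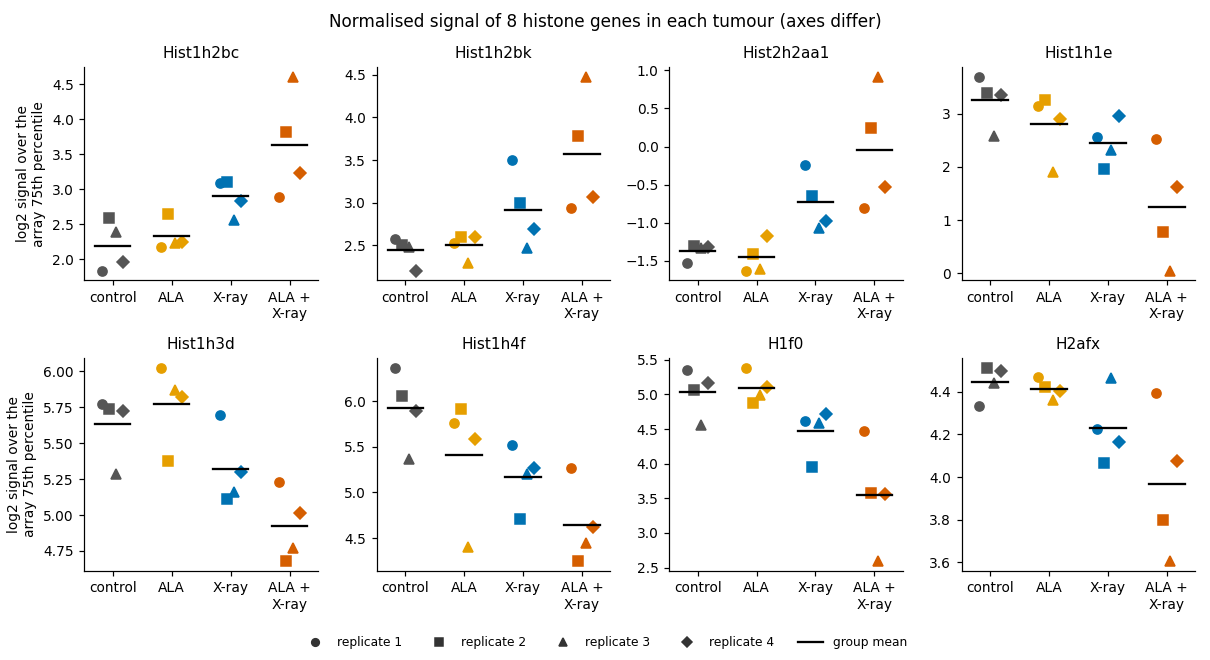
Each panel is 1 gene, with the group on the x axis and the log2 signal over the array's 75th percentile on the y axis; each point is a tumour, its shape the replicate number, and bars are group means. Hist1h2bc, Hist1h2bk and Hist2h2aa1 are higher after ALA plus X-ray than in every control, and Hist1h1e, Hist1h3d, Hist1h4f and H1f0 are lower; in H2afx replicate 1 lies among the controls.

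X-ray alone passed the test in 0 of the 34 histone genes, against a background of 3.37% of all genes tested (1.99% higher and 1.38% lower). An unadjusted p below 0.05 was found in 4 of them and in 3375 of all 15399 genes. With arrays weighted by quality 7 passed, beside 2963 of all genes, and in the authors' deposited values 1, beside 632. The family medians were 0.42 for H2B, -0.55 for H4, -0.32 for H3, -0.32 for H1, 0.01 for H2A and -0.22 for the variants, beside -0.02 over all genes. The variants were below 0 in 7 of 7 genes, and over all genes tested 8112 of 15399 were. H2afz had the smallest p. Its log2 signals were 6.87, 7.12, 7.00 and 7.05 in controls and 6.66, 6.23, 6.86 and 6.46 after X-ray, so that the groups did not overlap, with a change of -0.46 ± 0.19 (limma adjusted p = 0.168). Hist1h2bc was at 0.70 ± 0.30 (0.186), Hist1h1c at 0.76 ± 0.34 (0.211) and Hist1h4f at -0.75 ± 0.33 (0.197). Hist1h4d and Hist2h3c1 were at -0.61 ± 0.34 and -0.32 ± 0.18 (0.317 and 0.316). Hist1h1c was higher in every X-ray tumour, at 2.62 to 3.56, than in the controls, at 2.10 to 2.59.

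ALA alone passed in 0 histone genes and in 0% of all genes tested; 1 histone gene and 961 genes in all had an unadjusted p below 0.05, and with arrays weighted by quality 40 genes passed, 0 of them histone genes. The histone gene was Hist1h2ak, at -0.37 ± 0.16 (limma adjusted p = 0.796). Next among the cluster genes below 0 were Hist1h2ai at -0.28 ± 0.13 and Hist1h4f at -0.51 ± 0.33, and above 0 the smallest p values were those of Hist2h3c1 at 0.17 ± 0.18, Hist1h3d at 0.14 ± 0.18 and Hist1h2bc at 0.13 ± 0.30. The 10 tested H2A genes and the 5 H4 genes were all below 0, with medians of -0.24 and -0.38, where 7756 of all 15399 genes were below 0. Replicate 3 of ALA was the lowest tumour of its group in each of the 5 H4 genes, with a family shift of -1.20 beside -0.16, 0.05 and -0.14 in its partners, and in the H2A family it had a shift of -0.63 beside -0.24, 0.02 and -0.18. Without it the medians were -0.10 for H2A, with 9 of 10 genes below 0, and -0.09 for H4, and that of all cluster genes moved from -0.18 to -0.03. The variants had a median of -0.02, beside -0.0026 over all genes tested.

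ALA plus X-ray against ALA asks what radiation changed in tumours that had received ALA. Here 15 of 34 histone genes changed (background 24.1%), with 9 cluster genes higher (background 10.7%), 3 cluster genes lower (background 13.4%) and 3 variants lower. Over all genes the split was 1649 higher and 2064 lower, and 1360 and 536 when arrays were scaled to their median. It shares its treated tumours with the comparison against control, so the pair are not independent. H2B again had 5 genes higher, with a median of 1.07 and Hist1h2bc at 1.31 ± 0.30 (limma adjusted p = 0.00958). The Hist1h2ba call ended with the replicate number as a block (equal to the slide), and also under median scaling, without the filter on dim probes and in the fit of the compared arrays alone. Those of Hist1h2bk, Hist1h2bm and Hist3h2bb-ps ended in the last of these. Without ALA plus X-ray replicate 2 the H2B count was 2, and 1188 of all genes were higher. Beside them 4 H2A genes were higher, namely Hist2h2aa1 at 1.41, Hist1h2ai at 0.64, Hist2h2ac at 0.62 and Hist1h2ak at 0.56. Without ALA replicate 3 the number was 2, and 1188 of all genes were higher. The Hist1h2ak call ended under median scaling, without the filter and in the fit of the compared arrays alone, and the Hist2h2ac call in the last of these.

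Hist1h2ai, whose probe is printed above, had log2 signals of -0.49, -0.14, -0.52 and -0.20 after ALA and 0.31, 0.06, 0.56 and 0.28 after ALA plus X-ray, beside -0.15, -0.09, -0.09 and 0.10 in controls. The treated groups did not overlap, and the difference was 1.56-fold (limma adjusted p = 0.00668). Both H3 genes were lower, Hist1h3d at -0.85 ± 0.18 and Hist2h3c1 at -0.82 ± 0.18 (limma adjusted p = 0.0072 and 0.00784), as was Hist1h1e at -1.56 ± 0.45 (0.0249). The Hist2h3c1 call ended under median scaling; that of Hist1h1e ended in the fit of the compared arrays alone and on leaving out any 1 of ALA replicates 1, 2 and 4 and ALA plus X-ray replicates 2 and 3. None of the 5 H4 genes passed, with a median of -0.69 and Hist1h4a at -0.87 ± 0.32 (limma adjusted p = 0.0601). Without ALA replicate 3, or without ALA plus X-ray replicate 1, 4 of them passed, where 1591 and 3674 of all genes were lower. Among the variants H1f0 was lower at -1.53, H3f3b at -0.50 and H2afx at -0.45. The H2afx call ended with the replicate block, normexp background, median scaling, no filter and the compared arrays alone, and in 12 of 18 alternatives in all; the H3f3b call ended under median scaling and in the compared arrays alone. Without replicate 1 of ALA plus X-ray 24 histone genes passed, 6 of them variants, beside 37.8% of all genes, and the cluster median was 0.13 instead of -0.05. In the fit of the compared arrays alone 6 histone genes passed, beside 1589 of all 15399 genes. With arrays weighted by quality 26 passed, beside 6438 of all genes.

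Adding ALA to X-ray was compared directly with X-ray alone. None of the 34 histone genes passed (background 2.07%). An unadjusted p below 0.05 was found in 9 of them and in 3566 of all 15399 genes tested. H1f0 was at -0.91 ± 0.31 (limma adjusted p = 0.113), Hist1h1e at -1.21 ± 0.45 (0.14), Hist3h2bb-ps at 0.71 ± 0.28 (0.158) and Hist1h2bc at 0.74 ± 0.30 (0.167). Hist2h2aa1 was at 0.69 ± 0.30 (0.19), Hist1h3d at -0.39 ± 0.18 (0.211) and Hist1h4a at -0.62 ± 0.32 (0.255). Family medians were 0.66 for H2B, -0.50 for H4, -0.36 for H3 and -0.26 for the variants, beside -0.08 over all genes. Without replicate 1 of ALA plus X-ray 9 histone genes passed (20.4% of all genes), 4 of them H2B genes, all higher. With arrays weighted by quality 6 passed, beside 2165 of all genes.

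The interaction, ALA plus X-ray minus X-ray minus ALA plus control, asks whether the effect of radiation differed with ALA. It passed in 0 histone genes (background 1.23%). An unadjusted p below 0.05 was found in 4 histone genes and in 2939 of all 15399 genes. With arrays weighted by quality 1 histone gene passed, beside 2023 of all genes. The smallest p values belonged to Hist1h2ai at 0.56 ± 0.19 (limma adjusted p = 0.143), H3f3b at -0.46 ± 0.17 (0.168), Hist1h2ak at 0.56 ± 0.23 (0.215) and H1f0 at -0.97 ± 0.44 (0.252). They were followed by Hist1h3d at -0.54 ± 0.26 (0.273), Hist2h3c1 at -0.50 ± 0.25 (0.296) and Hist2h2aa1 at 0.77 ± 0.42 (0.334), and Hist1h1e was at -0.76 ± 0.64 (0.532). The variants ranged from -0.97 to 0.10. The gap between families was not tested in this comparison.

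Promoters could be looked up for 36 of the 43 genes in RefSeq (GRCm38.p6), as the 250 bases before the start. The octamer ATTTGCAT, the known element of H2B promoters bound by POU factors, was found on either strand in 4 of 7 H2B and 6 of 11 H2A promoters, in 0 of 6 H1, 0 of 2 H3 and 0 of 4 H4 promoters and in 1.6% of 32851 promoters. Neighbouring H2A and H2B genes often share 1 promoter region, so these counts overlap. CCAAT was present in 27 of 30 cluster promoters and 33.8% of all, and TATAAA in 16 of 30 and 12.4%. Hist1h2bc, the H2B gene with the largest rise, had no promoter entry. The last 110 bases before the start are shown for a pair of H2B genes whose probes rose and an H4 gene whose probe fell. They are Hist1h2bk (chr13:22035711-22035820, plus strand), Hist1h2bm (chr13:21721934-21722043, plus strand) and Hist1h4a (chr13:23761250-23761359, minus strand), with the octamer and CCAAT words in capitals.
Hist1h2bk: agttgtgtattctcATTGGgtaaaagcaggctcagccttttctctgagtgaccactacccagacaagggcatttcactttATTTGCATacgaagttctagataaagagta
Hist1h2bm: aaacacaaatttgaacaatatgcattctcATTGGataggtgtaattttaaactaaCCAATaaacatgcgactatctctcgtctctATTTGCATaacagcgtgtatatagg
Hist1h4a: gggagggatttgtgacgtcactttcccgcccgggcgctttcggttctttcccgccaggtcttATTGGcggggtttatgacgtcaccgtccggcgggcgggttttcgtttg
These matches describe letters in a window and say nothing of binding in these tumours. The Hist1h2bk and Hist1h2bm probes read nearly the same stretch, so their rise cannot be placed at either promoter.

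Genes that work with histones were read from 5 lists. Of 41 genes of S phase and DNA replication, all tested, 38 fell and 0 rose after ALA plus X-ray against control (background 15.1% lower), with a median of -0.99 beside -0.08 over all genes. Replicate 1 of ALA plus X-ray had a median shift of -0.30 in this list, beside -1.13, -1.66 and -0.92 in its partners, and without it 39 fell, with a median of -1.20. Pcna, the sliding clamp of the replication fork, was at -0.89 ± 0.15 (limma adjusted p = 0.00312), the clamp loader subunit Rfc4 at -1.24 ± 0.22 (0.00388), the single-strand binding subunit Rpa2 at -0.87 ± 0.15 (0.00351) and the polymerase subunit Pole2 at -0.98 ± 0.19 (0.00512). After X-ray 9 fell (background 1.38%), with a median of -0.69 and Pole2 at -0.90 ± 0.19 (limma adjusted p = 0.0281). The number that fell was 15 without X-ray replicate 3, where 397 of all genes fell. It was 0 without any 1 of the other 7 tumours compared, where 0 to 103 of all genes fell, beside 212 in the main fit. Against ALA 34 fell after the combined treatment (background 13.4%), and 21 without ALA replicate 2 or ALA plus X-ray replicate 2 or 3. In these 3 fits 1462, 1172 and 1139 of all genes fell, beside 2064 in the main fit. None passed after ALA alone or between ALA plus X-ray and X-ray. In the latter 16 fell without ALA plus X-ray replicate 1, where 1940 of all genes fell. Against control all 41 genes of the list had values below 0, as did both H3 and all 5 H4 genes tested, while 5 H2B genes had values above 0 and Hist2h2be one below 0.

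The chaperones that deposit replicative histones had 16 tested genes, of which 11 fell and 0 rose after ALA plus X-ray against control (background 15.1% lower), and 2 fell after X-ray (background 1.38%). Leaving out 1 tumour gave 7 to 12 against control and 0 to 2 after X-ray. In the same fits 1141 to 3803 and 0 to 397 of all genes fell. Examples were Nap1l1, an H2A-H2B chaperone, at -0.80 ± 0.14 (limma adjusted p = 0.00409), the H3-H4 chaperones Asf1a at -0.68 ± 0.14 (0.00743) and Asf1b at -1.01 ± 0.22 (0.00869), and Hat1, which acetylates new H4, at -0.76 ± 0.17 (0.0094). Against ALA 11 fell (background 13.4%; 5 to 14 without 1 tumour). Among 20 genes that deposit replacement variants 8 fell after ALA plus X-ray against control and 8 against ALA, where 15.1% and 13.4% of all genes fell, and 1 fell after X-ray, where 1.38% did. Without 1 tumour the count was 4 to 9 in the first pair and 0 to 1 after X-ray. Hira, the H3.3 chaperone, was at -1.40 ± 0.36 (limma adjusted p = 0.0151), Dek, a chromatin protein with H3.3 chaperone activity, at -0.86 ± 0.15 (0.0035), and the H2A.Z remodelling subunits Ruvbl1 and Ruvbl2 at -0.80 ± 0.16 and -0.99 ± 0.27 (0.00625 and 0.0179).

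Of 19 tested genes for histone gene transcription and 3′ processing, 6 fell after ALA plus X-ray against control (background 15.1%), 3 against ALA (background 13.4%) and 0 after X-ray (background 1.38%). The share against ALA, 15.8%, lay near the background. Leaving out 1 tumour gave 0 to 10 against control and 0 to 11 against ALA. The 4 of smallest p against control were Snrpf at -0.50 ± 0.14 (limma adjusted p = 0.02), Snrpb at -0.75 ± 0.22 (0.0233) and Snrpe at -0.63 ± 0.18 (0.0251), all Sm proteins shared with the splicing machinery, and Cpsf3, the endonuclease that cuts pre-mRNA ends, at -0.58 ± 0.18 (0.0344). Slbp, which binds the stem-loop, was at -0.28 ± 0.12 after ALA plus X-ray and -0.39 ± 0.12 after X-ray, and passed in neither (limma adjusted p = 0.0982 and 0.0784). Of 5 tested variant genes outside the 7, Macroh2a3 at 1.37 ± 0.28 (limma adjusted p = 0.00647) and H1f8, the oocyte linker histone, at 1.13 ± 0.38 (0.0416) rose after ALA plus X-ray against control (background 9.77%). Against ALA, Macroh2a3 and H2aj were higher, at 1.06 and 0.50 (background 10.7%). Leaving out 1 tumour gave 1 to 2 against control and 0 to 2 against ALA.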

How the data were processed

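The study measured 16 one-colour Agilent arrays (4 tumours in each of 4 groups, as labelled). The authors deposited scanner output and a table of processed values. Spot intensity was extracted with Feature Extraction 10.7.3.1 on mm9 annotation, per the file headers (9.5.3.1 per the submitters' processing notes), with background-subtracted processed signal and flags for spots above background or not uniform. The deposited table holds linear intensity values with the same median on each array; how it was scaled is not given in the sources used here, and its log2 served as an alternative.

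Here the log2 of the processed intensity minus each array's 75th percentile over non-control spots was used, per the deposited files. Spots flagged as outliers were left out, spots of a probe averaged, and probes kept if well above background on at least 4 of 16 arrays; 39 probes without usable spots on some array were dropped. The brightest probe stood for a gene. Current gene names came from accessions for 26876 of the 41174 probes, from symbols for 2894 and from older symbols for 351; the remaining 11053 kept their deposited name. Group means were fitted with limma 3.58.1 in R 4.3.3 over 15399 genes, with 12 residual degrees of freedom, 6 comparisons and a Benjamini-Hochberg threshold of 0.05 in each. The script was tested on simulated data. No array had saturated probes among those counted, and 44.3% to 53.6% of probes were well above background per array, which with 4 arrays a group limits precision.

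Members and lists were chosen with earlier results of these data known. Named were all variants, every cluster gene that passed in any comparison, the 3 cluster genes of smallest p in each direction, all members below the brightness requirement, and up to 4 genes per list and direction that passed. Genes named for another reason were chosen after their values were seen. Slides carried 1 tumour of each group and their number equalled the replicate number. Deviations of same-numbered tumours from their group means had correlations of -0.461 to 0.54, over 0.1 in 9 of 24 pairs. Differently numbered tumours gave -0.601 to 0.454, over 0.1 in 20 of 72 pairs. The ranges overlapped widely, and the numbers were not used as a pairing in the main fit. Alternatives were normexp background with an offset of 50, quantile and median scaling, the deposited table, no or a stricter filter, the mean of probes, the compared arrays alone, a replicate block, array weights and leaving out each array.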

Additional observations from a re-analysis of the deposited data

Results flagged for a closer look

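In 14 of 136 groups of 4 tumours (34 genes, 4 groups) 1 tumour stood apart from its 3 partners by the gap test of Dixon; chance flags about 1 in 20 groups. All values are log2 signals over the array's 75th percentile. High tumours were Hist1h1b in X-ray replicate 1 at -3.30, Hist1h2ak in control replicate 4 at 0.94 and Hist1h2bc in ALA replicate 2 at 2.65. Low tumours in controls were Hist1h2bm in replicate 4 at 2.28, Hist1h3d in replicate 3 at 5.29 and Hist2h2aa1 in replicate 1 at -1.53. After ALA, replicate 3 was low in Hist1h2aa at 5.19, Hist1h4a at 2.48 and Hist3h2bb-ps at 2.09. After X-ray, replicate 2 was low in H1f0 at 3.95, Hist1h2ab at 0.10 and Hist2h4 at 3.19, and replicate 3 was low in Hist2h2ac at 5.18. After ALA plus X-ray, Hist1h2af in replicate 2 was low at 5.84.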

How the results depend on the processing

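No histone gene called in any comparison changed sign under any alternative. Of the 17 genes called for ALA plus X-ray against control, 7 (H1f0, Hist1h1e, Hist1h2bc, Hist1h3d, Hist1h4f, Hist2h2aa1 and Hist3h2bb-ps) passed under all 18 alternatives, and of the 15 against ALA, 5 did. The replicate block gave 18 and 15 histone genes for these comparisons and 0 for the others; 17 of the 18 and 13 of the 15 were those called without it (Hist1h2ba and H2afx lost their calls against ALA), and it lowered the interaction's count over all genes from 189 to 8. Median scaling gave 11 histone genes against control and a variant median of -0.14 for ALA, where the median over all genes moved to -0.12. The compared arrays alone gave 9 and 6, with fewer residual degrees of freedom. Array weights gave 7 for X-ray, 6 for ALA plus X-ray against X-ray, 26 against ALA and 1 for the interaction. The authors' table gave 1 for X-ray. With normexp background the cluster median for X-ray was -0.059 and the variant median for ALA 0.0557. The cause of these shifts was not tested except as stated. Leaving out 1 tumour gave 8 to 23 histone genes against control, 10 to 24 against ALA and 0 to 9 against X-ray, cluster medians of -0.2622 to -0.0454 for X-ray, and variant medians of -0.0463 to 0.0347 for ALA. Over all genes, median scaling gave 28, 2135 and 1896 calls for X-ray and for ALA plus X-ray against control and against ALA, where the counts reported above were 519, 3828 and 3713. It gave 27 higher and 1 lower for X-ray (otherwise 307 and 212), 206 and 37 for ALA plus X-ray against X-ray (otherwise 200 and 118) and 241 and 32 for the interaction (otherwise 138 and 51). No filter gave 3 for X-ray, 11 against X-ray (otherwise 318) and 40 for the interaction. The compared arrays alone gave 2 for ALA, 1603, 1 and 1589 against control, X-ray and ALA, normexp 521 against X-ray, and array weights 2963, 40, 6442, 2165, 6438 and 2023 in the 6 comparisons. Leaving out 1 tumour gave 1 to 836 for X-ray, 1954 to 5953 against control, 3 to 3135 against X-ray, 2165 to 5817 against ALA and 1 to 1065 for the interaction. The interaction needs all groups, so it has no fit of compared arrays alone. Dim probes such as Hist1h1b are limited by signal over background.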
